A study of Oryza sativa with 51 samples.

Results

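In flag leaves of the rice hybrid LY2186, 91 genes stood above both parents of the cross at 14 or more of 17 sampling times. They were chosen by measured values: a gene had to have a mean of at least 5 FPKM (fragments scaled by transcript length and by library size) over 51 libraries, and its value in LY2186 had to exceed the value of each parent taken at the same time. Of 34653 genes in the deposited table, 12085 reached that mean, and the 91 genes were 0.753% of them. The difference between LY2186 and its parents was therefore used to choose these genes, so it is given below as a description with no test.

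The study followed the flag leaf, the last leaf formed before the panicle, in LY2186, in its male-sterile parent SE21s and in its restorer parent MH86. Plants grew together in the field and were sampled while the grain filled. Each line gave 17 strand-specific RNA libraries at Zeitgeber times (ZT) 0 to 48, spaced by 3 h, and no line has a second library for any time. The labels give no light schedule. Whether separate plants stand behind the libraries is not stated, so p-values cover the spread among these libraries only, and that spread may be technical.

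A first-generation hybrid carries a chromosome set from each parent. For many genes its transcript level falls between those of the parents, and a level beyond the higher parent is called transgressive or overdominant expression. In leaves a large share of transcripts also follows the day through the circadian clock, whose transcription factors repress each other in a loop that is timed by light. Hybrid vigour in plants has been studied in relation to this clock, which sets the daily timing of photosynthesis and starch metabolism.

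Low values in the table gave relative library depths from 1, for the SE21s library of ZT0, to 2.43. Fragment numbers are unknown, so no counting intervals are given. The mesophyll genes of the antenna and carbon fixation lists were abundant, up to 12213 FPKM. Over all libraries 0 of 4 grain markers and 0 of 5 floral organ markers reached a mean of 5 FPKM, with highest means of 3.37 and 4.93 FPKM. The highest floral marker, MADS1, differed between lines, with means of 2.01 FPKM in SE21s, 8.28 in MH86 and 4.51 in the hybrid, and the part of such tissue in the results was not tested. In bulk leaf tissue, fewer cells of a type and less RNA per cell cannot be told apart.

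The excess over the higher parent was small for most of the 91 genes. On the log2(FPKM + 0.5) scale the mean difference between LY2186 and the higher parent of the same time had a median of 0.27 over the genes, with quartiles of 0.16 and 0.48 and a range of 0.07 to 2.57. Over all 12085 genes its median was -0.20. The mean FPKM of LY2186 was 1.28 times the mean of the higher parent for the median gene, and between 1.07 and 5.31 times over all 91.

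That ratio reached 1.1 in 86 genes, 1.5 in 27 and 2 in 11. In 20 genes the mean in LY2186 was above the sum of the parental means. Most of the genes were above both parents with a few exceptions in time: 52 at 14 times, 23 at 15, 12 at 16 and 4 at all 17. The 4 genes without exception, named here after their values were seen, were LOC_Os11g01310, LOC_Os07g35810, LOC_Os07g01904 and LOC_Os11g17380.

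The opposite pattern, a hybrid level below both parents at 14 or more times, was found in 39 genes, or 0.323% of those with a mean of at least 5 FPKM. The number of genes fell off without a step around the threshold, since another 91 genes stood above both parents at 13 times. Just inside it were LOC_Os07g28430, LOC_Os10g30600 and LOC_Os12g06630, with 14 times and mean log2 differences of 0.07, 0.09 and 0.09. Just outside were LOC_Os04g41229, LOC_Os04g39320 and LOC_Os04g53850, with 13 times and larger mean log2 differences of 1.07, 0.87 and 0.47. At the limit on level, LOC_Os07g35810, LOC_Os09g18360 and LOC_Os04g29550 entered with means of 5.33, 5.51 and 5.58 FPKM. LOC_Os02g49920, LOC_Os09g18020 and LOC_Os08g35210 met the count of times and stayed out with means of 4.72, 4.58 and 4.50 FPKM.

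The 91 genes ranged in mean level from 5.33 to 557 FPKM, with a median of 22.4 FPKM against 19.6 FPKM for all genes with a mean of at least 5. Genes of every level class were chosen: 23 genes lay between 5 and 10 FPKM (0.798% of the genes at that level), 35 between 10 and 30 (0.691%), 22 between 30 and 100 (0.713%) and 11 at 100 or more (1.05%). Their median log2 difference to the higher parent was 0.57 in the lowest of these classes and 0.22, 0.22 and 0.18 in the others.

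**Figure D1:**
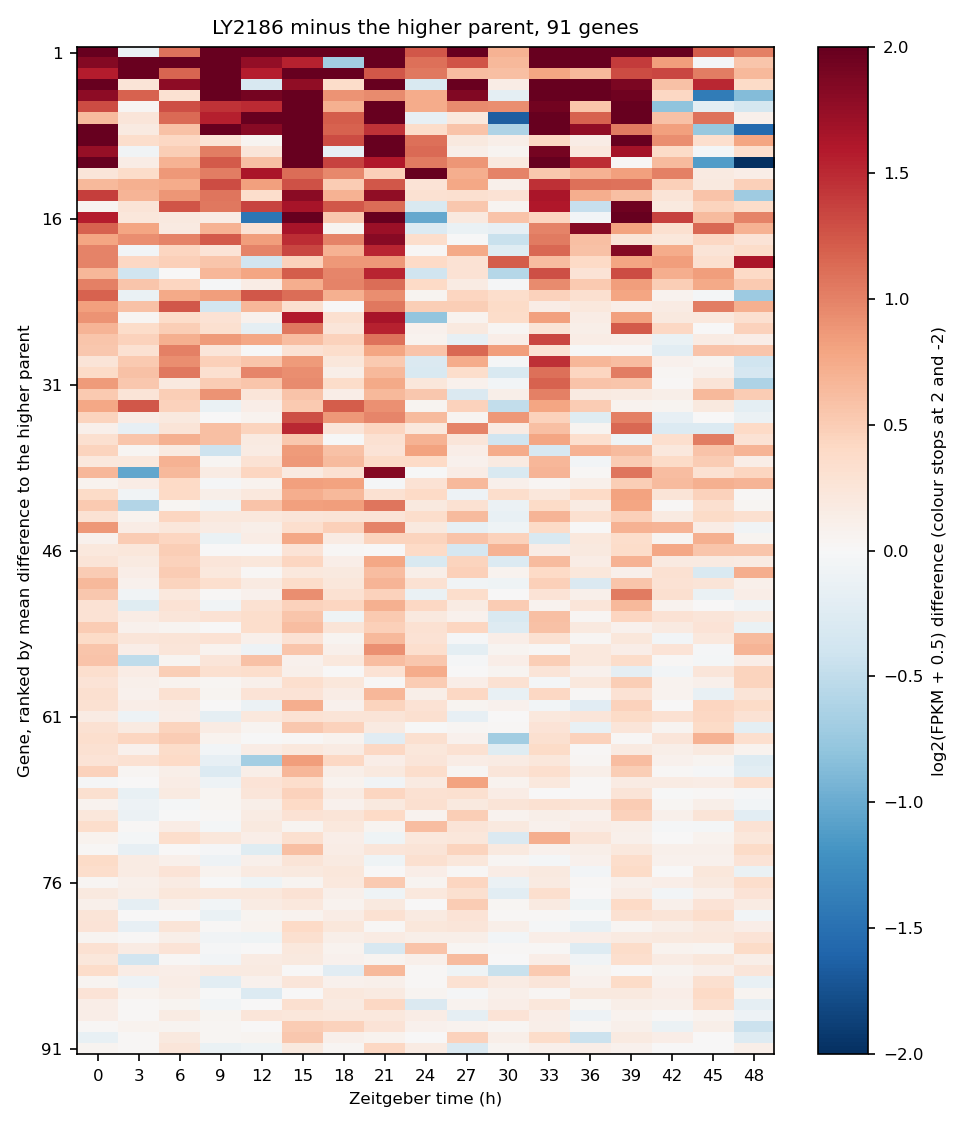
Log2(FPKM + 0.5) in LY2186 minus that of the higher parent of the same time, for 91 genes (rows, ranked by their mean difference) at 17 Zeitgeber times in h (columns); red is above and blue below the higher parent, with the colour stopped at 2 and -2. The top 11 to 27 rows carry most of the strong red, the remaining rows are pale, and the columns at 15, 21 and 39 h are the strongest red.

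The table does not pair locus identifiers with gene names, and none of its identifiers is in the reference gene table, so the genes are given by identifier. A symbol is used only for genes of the lists described below.

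The gene with the largest excess was LOC_Os10g26940, on chromosome 10. Its level ran from 15.95 to 371 FPKM in LY2186 (median 104), from 0.455 to 28.2 FPKM in SE21s (median 1.23) and from 0.872 to 78.5 FPKM in MH86 (median 23.1). The ranges overlapped, but LY2186 was the highest line at every time other than ZT3, when MH86 stood at 78.5 and LY2186 at 72.0 FPKM. The means were 129 ± 105 FPKM in LY2186, 5.54 ± 8.18 in SE21s and 24.4 ± 22.6 in MH86 (SD over 17 times each). The excess was widest at ZT21, with 371 FPKM in LY2186, 0.71 in SE21s and 5.72 in MH86.

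LOC_Os04g03796, on chromosome 4, was next and was a gene with almost no signal in 1 parent. It was listed at 0 in 9 of 17 MH86 libraries and reached at most 0.267 FPKM there, so no fold against MH86 is given. In SE21s it ran from 4.49 to 84.5 FPKM (median 21.005) and in LY2186 from 9.87 to 159 FPKM (median 70.1). LY2186 was thus above every MH86 library and 2.68 times SE21s in mean level, while the ranges of LY2186 and SE21s overlapped.

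LOC_Os11g01310 was above both parents at all 17 times. Its level ran from 10.4 to 58.1 FPKM in LY2186 (median 26.2), from 4.54 to 28.4 in SE21s (median 10.7) and from 0.800 to 11.2 in MH86 (median 4.67). The smallest log2 difference to the higher parent was 0.61, at ZT30, and the largest 2.30, at ZT9. This locus lies near the start of chromosome 11, a segment with a recent duplicate on chromosome 12, and how multiply mapping fragments were counted is not given in the sources used here.

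LOC_Os07g35810, also above both parents at all times, had its large excess in only part of the day. In LY2186 it ran from 0.881 FPKM at ZT9 to 30.3 FPKM at ZT21 (median 10.5), in SE21s from 0.0824 to 6.09 FPKM (median 0.852) and in MH86 from 0.637 to 9.87 FPKM (median 1.65). From 3 to 12 h on either day the lines all lay below 2 FPKM. At ZT15 LY2186 had 10.5 FPKM against 0.62 in SE21s and 1.15 in MH86. The mean log2 difference to the higher parent was 1.90 at 15, 18 and 21 h and 0.30 at 3, 6 and 9 h.

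Of the other genes with a large excess, LOC_Os08g10304 averaged 10.9 ± 7.21 FPKM in LY2186, 2.75 ± 1.99 in SE21s and 3.30 ± 2.11 in MH86 (SD, n = 17 times). LOC_Os02g41630 averaged 32.9 ± 22.8 FPKM in LY2186, 5.24 ± 3.68 in SE21s and 12.95 ± 11.4 in MH86. LOC_Os03g31750 averaged 17.0 ± 16.9 FPKM in LY2186, 2.10 ± 1.16 in SE21s and 7.20 ± 8.36 in MH86. In each of them the hybrid varied widely over time and its range overlapped with both parents.

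LOC_Os09g18360 and LOC_Os04g49194 completed the 8 genes with the largest mean difference. The first averaged 9.51 ± 5.36 FPKM in LY2186, 2.18 ± 2.19 in SE21s and 4.84 ± 4.60 in MH86. The second averaged 35.0 ± 24.5 FPKM in LY2186, 6.63 ± 3.36 in SE21s and 14.98 ± 7.32 in MH86. LOC_Os04g49194 was below the higher parent at ZT48, by a log2 difference of -1.55.

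**Figure D2:**
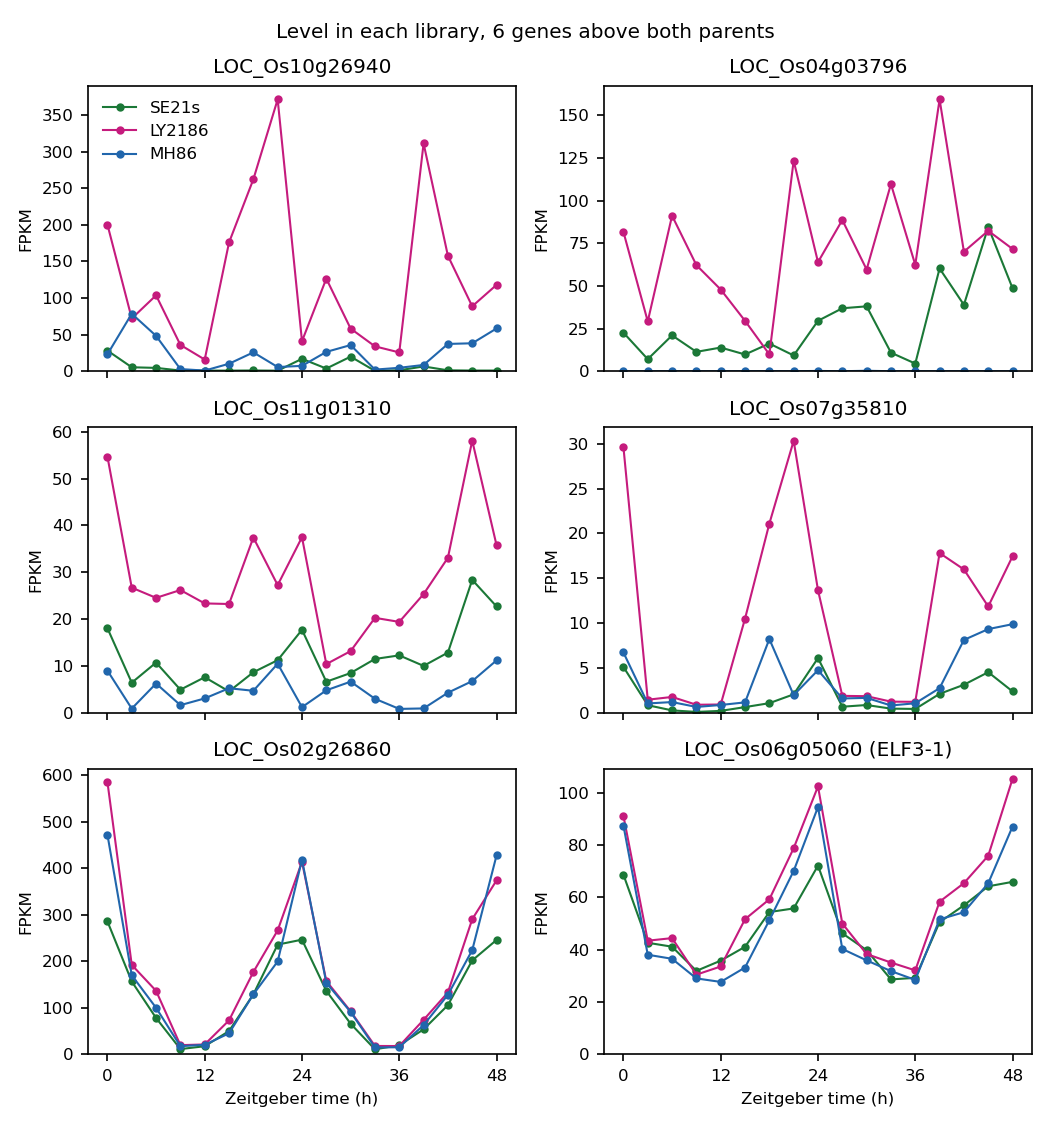
FPKM in each library against Zeitgeber time (h) for 6 of the genes, with 1 point per line and time; the FPKM axes start at 0 and differ between panels. LOC_Os10g26940, LOC_Os04g03796 and LOC_Os11g01310 show LY2186 far above both parents, LOC_Os07g35810 shows an excess from 15 to 24 h of each day, and LOC_Os02g26860 and ELF3-1 show 3 nearly parallel daily curves with LY2186 slightly above at most times.

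The most abundant genes mostly showed the modest form of the pattern. LOC_Os01g48930 ran from 171 to 1758 FPKM in LY2186 (median 672), from 131 to 823 in SE21s (median 279) and from 111 to 1676 in MH86 (median 373). LOC_Os05g48800 ran from 138 to 1371 FPKM in LY2186 (median 415), from 115 to 1312 in SE21s (median 337) and from 124 to 1299.5 in MH86 (median 344). The daily swing of these genes was far wider than the gap between lines, whose mean ratios to the higher parent were 1.18 and 1.12.

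LOC_Os03g15050, LOC_Os03g54160, LOC_Os02g03960 and LOC_Os02g26860 had mean ratios to the higher parent of 1.18, 1.09, 1.36 and 1.13. LOC_Os02g26860 averaged 179 ± 161 FPKM in LY2186, 120.1 ± 93.5 in SE21s and 158 ± 149 in MH86 (SD, n = 17 times). Its 3 curves rose and fell together. At ZT0 it had 585 FPKM in LY2186, 285 in SE21s and 472 in MH86, while at ZT24 (414, 246 and 418 FPKM) and ZT48 (373, 245 and 427 FPKM) MH86 was the highest line.

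The excess was not spread evenly over the sampling times. At ZT15 all 91 genes were above both parents and at ZT39, the same hour of the second day, 89 were, while the lowest number was 62, at ZT30. The share of all genes averaging 5 FPKM or more that stood above both parents was itself highest at ZT15 (36.7%) and lowest at ZT36 (15.9%). The share of these genes that stood below both parents was also highest at ZT15 (33.2%). Such shares also depend on how close the parents lie, and the part of this was not tested. The median log2 difference of the 91 genes to the higher parent was 0.55 at ZT15, 0.52 at ZT21 and 0.46 at ZT39, and 0.07 at ZT30. Apart from 15 h these hours did not repeat between days, with 0.21 at ZT45 and 0.30 at ZT6. At 9 h the median was 0.16 at ZT9 and 0.38 at ZT33.

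In 71 of 91 genes the mean difference was larger at 15, 18 and 21 h than at 3, 6 and 9 h. The medians were 0.38 and 0.20 for the 91 genes, and -0.19 and -0.18 for all genes. These values chose the 91 genes, and no matching count over all genes was made. Of the later times, ZT15, ZT21 and ZT39 had medians of 0.46 to 0.55, and ZT18, ZT42 and ZT45 of 0.16 to 0.23. At the hour sampled 3 times the number above both parents was 89 at ZT0, 77 at ZT24 and 64 at ZT48. The median difference was 0.30 on the first day and 0.23 on the second, and 27 genes had the larger difference on the second day. ZT15 was sampled in each line with relative depths of 2.38 to 2.43, among the deepest of the series, and the part of depth in these values was not tested.

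**Figure D3:**
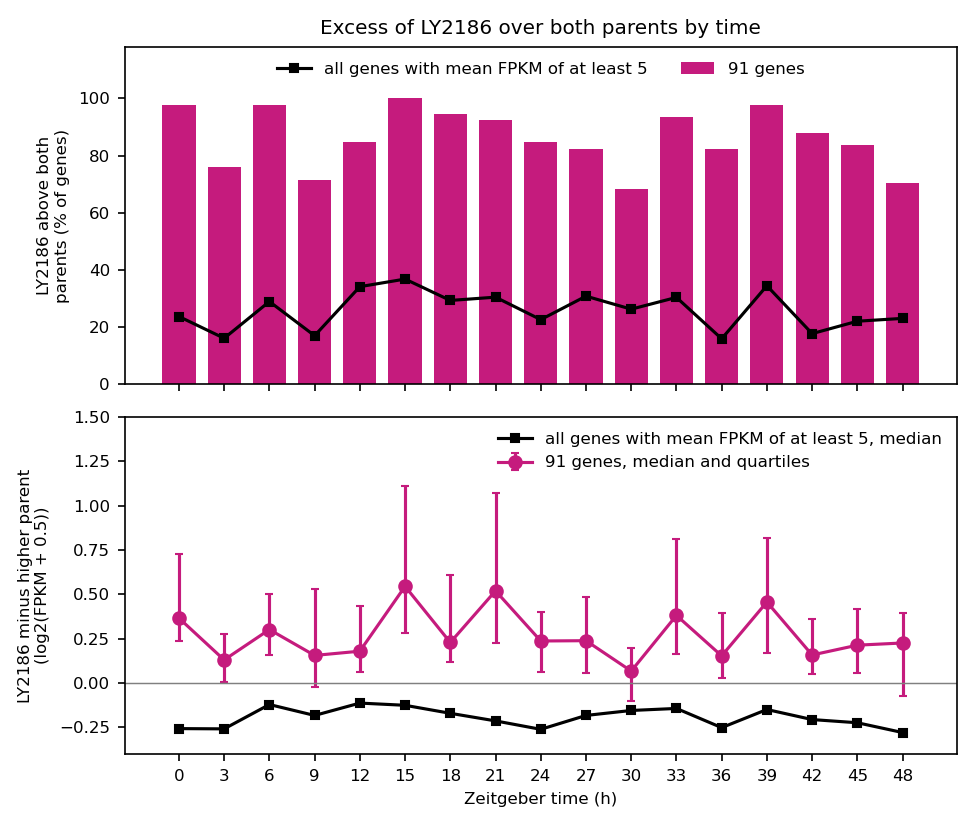
Top, percent of genes with LY2186 above both parents at each Zeitgeber time (h), for the 91 genes (bars) and for all genes averaging 5 FPKM or more (line); bottom, median and quartiles over the 91 genes of the log2(FPKM + 0.5) difference to the higher parent, with the median of all such genes. The bars reach 100% at 15 h and fall to 68.1% at 30 h, and the median of all genes stays below 0 throughout.

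The rule compared lines at the same time, not times within a line, and the daily course within each line is described next. The fits use the same values that chose the genes. How far that choice favours rhythmic genes was not tested. A 24 h cosine curve was fitted to each line with limma over all 16842 genes whose mean reached 1 FPKM, and a gene was called rhythmic at a Benjamini-Hochberg adjusted p under 0.05. Of the 91 genes, 78 passed in SE21s, 82 in LY2186 and 79 in MH86. These are 85.7%, 90.1% and 86.8% of the 91 genes, while 67.5%, 71.1% and 72.1% of all genes tested were called in the same lines. Among genes averaging 5 FPKM or more the shares were 70.4%, 74.1% and 75.9%. The surplus lay in genes with a small excess. Rhythmic were 59, 63 and 62 of the 64 genes whose ratio to the higher parent was under 1.5. Of the 27 genes with a higher ratio, 19, 19 and 17 were rhythmic, and this split was not tested.

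In all 3 lines 69 of the 91 genes were rhythmic (75.8% against 58.9% of genes averaging 5 FPKM or more). The 4 genes rhythmic in no line, named after their values were seen, were LOC_Os04g03796, LOC_Os11g09680, LOC_Os01g70490 and the unplaced gene ChrUn.fgenesh.gene.18. LOC_Os03g31750 was the only one called in LY2186 alone, with an adjusted p of 0.0317 there that was lost without the filter on low genes. The difference in rhythm between lines was not tested. The fitted fold from trough to peak had a median of 2.40 in SE21s, 2.68 in LY2186 and 2.52 in MH86 over the 91 genes, against 1.83, 1.95 and 1.95 over genes averaging 5 FPKM or more. These folds are on the log2(FPKM + 0.5) scale, which understates the change of low genes.

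The rhythmic genes of the group peaked late in the 24 h cycle in every line, between ZT18 and the following ZT0, which by convention marks dawn. A fitted peak from 18 to 24 h was found in 56 of 78 rhythmic genes in SE21s (71.8%), 55 of 82 in LY2186 (67.1%) and 52 of 79 in MH86 (65.8%). Among all rhythmic genes averaging 5 FPKM or more the shares were 31.2%, 33.3% and 32.7%. Peaks from 6 to 12 h were rare, with 2, 2 and 1 genes, where 24.5% of all rhythmic genes peaked in each line.

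Without a fitted curve, most of the genes had their highest mean late in the cycle or at 0 h. The hour with the highest mean was 18, 21 or 0 h for 68 of 91 genes in SE21s (74.7%), 67 in LY2186 (73.6%) and 72 in MH86 (79.1%), against 42.9%, 43.6% and 42.03% of all genes averaging 5 FPKM or more. The single most common hour was 0 h, with 56, 50 and 51 genes (61.5%, 54.9% and 56.0%), and it was also the most common over all such genes (23.7%, 22.8% and 27.8%). At 18 h the shares were 3.30%, 5.49% and 17.6%, against 10.3%, 8.23% and 6.77% of all such genes. At 21 h they were 9.89%, 13.2% and 5.49%, against 8.9%, 12.6% and 7.4%. The surplus thus lay mostly at 0 h, and in MH86 also at 18 h. Timing in the hybrid followed that of the parents: over the 69 genes rhythmic in all lines, the fitted peak of LY2186 minus that of SE21s had a median of -0.08 h, and minus that of MH86 -0.38 h. The medians over all such genes averaging 5 FPKM or more were 0.10 and -0.39 h.

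**Figure D4:**
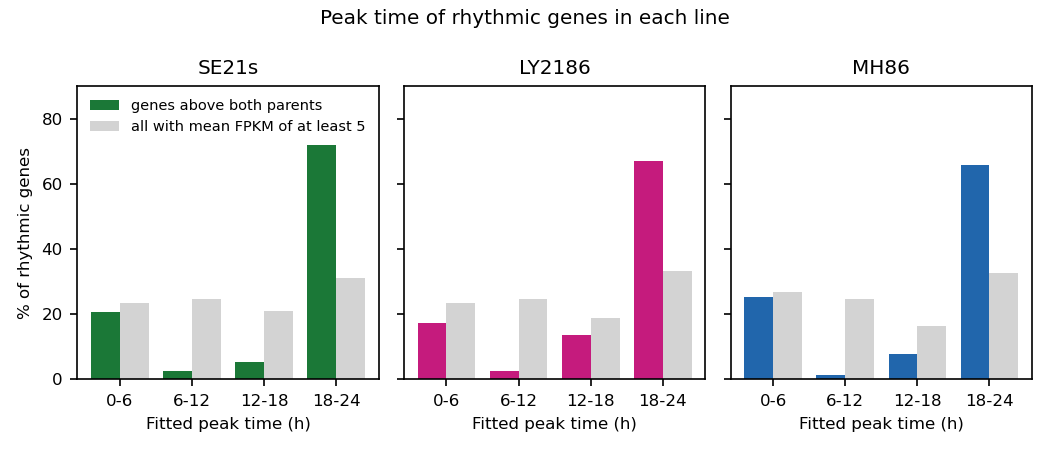
Percent of rhythmic genes whose fitted peak fell in each 6 h window (h), in SE21s, LY2186 and MH86, for the genes above both parents (coloured bars) and for all rhythmic genes averaging 5 FPKM or more (grey bars). The coloured bars reach 65.8% to 71.8% in the window from 18 to 24 h and 1.27% to 2.56% in the window from 6 to 12 h.

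The late peaks were also counted by the size of the excess. Among the 64 genes whose ratio to the higher parent was under 1.5, a peak from 18 to 24 h was found in 47 of 59 rhythmic genes in SE21s (79.7%), 47 of 63 in LY2186 (74.6%) and 44 of 62 in MH86 (71.0%). Among the 27 genes with a ratio of at least 1.5 it was found in 9 of 19 (47.4%), 8 of 19 (42.1%) and 8 of 17 (47.1%). The latter shares lie nearer to the 31.2%, 33.3% and 32.7% of all rhythmic genes. The split uses values that chose the genes, and the difference between these counts was not tested. With a stricter rule that asks for an excess of at least 1.2-fold at 14 times, 12 genes were left, and 3 of the 9 rhythmic in LY2186 had such a peak (33.3%), the share of all rhythmic genes in that line.

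Examples give the fitted peak times and folds of single genes in each line, whose differences were not tested. LOC_Os02g26860 cycled 17.8-fold in SE21s, 20.6-fold in MH86 and 19.2-fold in the hybrid. Its fitted peaks were at 22.7 ± 0.28 h, 22.9 ± 0.30 h and 23.1 ± 0.27 h (fit ± SE, limma, adjusted p of 1.5e-08, 5.0e-08 and 1.5e-08). LOC_Os07g35810 cycled 21.5-fold in LY2186 with a peak at 20.1 ± 0.41 h (adjusted p = 3.3e-06), and 5.99-fold and 6.41-fold in SE21s and MH86 with peaks at 21.5 ± 0.58 h and 20.9 ± 0.62 h.

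Of the rhythmic genes in LY2186, 14 peaked from 0 to 6 h, 2 from 6 to 12 h and 11 from 12 to 18 h. LOC_Os03g28300 peaked at 0.93 ± 0.33 h in the hybrid, 1.26 ± 0.30 h in SE21s and 1.46 ± 0.32 h in MH86, with a 12.8-fold cycle in LY2186, and LOC_Os05g28870 peaked between 0.47 and 0.90 h. LOC_Os01g38229 peaked around the middle of the cycle, at 11.1 ± 0.61 h, 11.9 ± 0.56 h and 10.8 ± 0.69 h, with a 14.7-fold cycle in LY2186. LOC_Os04g31760 peaked at 16.5, 16.9 and 15.98 h. LOC_Os08g38990 peaked at 17.47 h in LY2186, but at 18.2 and 18.6 h in SE21s and MH86. In each of these genes LY2186 was above both parents at 14 to 16 times.

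LOC_Os10g26940, the gene with the largest excess, had different fitted times in the lines. It peaked at 20.3 ± 1.04 h in LY2186 (adjusted p = 0.0130) and at 0.21 ± 1.18 h in MH86 (adjusted p = 0.0179, lost without the filter on low genes), and missed the threshold in SE21s (adjusted p = 0.0846). LOC_Os02g41630 had a fitted peak at 7.75 ± 0.97 h in the hybrid, against 1.91 ± 1.14 h in SE21s and 4.52 ± 0.93 h in MH86, where the SE21s call was lost without that filter. Neither shift was tested.

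Of the 138 genes in lists of leaf physiology and marker genes that reached a mean of 5 FPKM, 1 (0.725%) was among the 91, a share near the 0.753% of all such genes. It is ELF3-1 (LOC_Os06g05060, on chromosome 6), which encodes a subunit of the evening complex, a repressor of clock genes that acts at night. ELF3-1 ran from 30.4 to 105 FPKM in LY2186 (median 51.7), from 28.6 to 72.2 in SE21s (median 46.3) and from 27.6 to 94.6 in MH86 (median 40.3). The lines overlapped over most of their range, and LY2186 was the highest line at 14 of 17 times and the lowest at none. The log2 difference to the higher parent was largest at ZT15, 0.33, when LY2186 had 51.7 FPKM, SE21s 41.1 and MH86 33.2. At ZT0, where the levels were higher, it was 0.06, with 91.3, 68.7 and 87.5 FPKM.

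ELF3-1 averaged 58.6 ± 24.5 FPKM in LY2186, 48.5 ± 13.96 in SE21s and 50.8 ± 22.5 in MH86 (SD, n = 17 times), and its mean log2 difference to the higher parent was 0.12. Its fitted peak was at 21.8 ± 0.45 h in LY2186, 21.8 ± 0.44 h in SE21s and 22.1 ± 0.49 h in MH86, with folds from trough to peak of 2.76, 2.11 and 2.77. No difference in its level between the parents was called by limma (SE21s minus MH86 log2 difference 0.00 ± 0.05 SE, adjusted p = 0.995). In this list symbols were assigned to locus identifiers from general knowledge of rice genes.

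The other 10 clock genes did not reach 14 times above both parents. PRR73, PRR37 and GI reached 11, 10 and 10 of 17 times, PRR95, PRR59 and ELF3-2 6, LUX 5, LHY and PRR1/TOC1 4 and FKF1 3. The first 3 encode pseudo-response regulators and a partner of light-sensing proteins in the clock, and PRR73 averaged 110 FPKM in LY2186 against 98.7 in SE21s and 98.3 in MH86. The median over the 11 clock genes was 6 times, and over all genes averaging 5 FPKM or more it was 4 times.

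Of 173 listed loci, 172 were in the table and 138 reached a mean of 5 FPKM. Photosynthesis genes were seldom above both parents: the 14 antenna genes, which encode light-harvesting proteins, reached at most 2 of 17 times, the 12 chlorophyll synthesis genes at most 3, and the 11 carbon fixation genes at most 5. Photoreceptor genes came nearer, with a median of 9.5 times over 6 genes and at most 11. Single genes of the photorespiration, defence and gibberellin lists reached 12 times. In the opposite direction, 1 aquaporin gene was below both parents at 14 times.

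The parents of the 91 genes were compared with each other in a fit of all 51 libraries with time as a block. By limma at an adjusted p under 0.05, 11 of the 91 genes were higher in SE21s (12.1%, where 28.6% of all genes tested were) and 35 were lower in SE21s (38.5%, where 40.4% were), and 45 were not called. Without the replicate block, here the pairing of libraries by time, the counts were 3 and 14. The median absolute log2 difference between the parents was 0.17 for the 91 genes and 0.33 for all genes tested. A gene clears both parents more readily when they lie close together, so the choice of genes favours such values, which are a description.

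The means of MH86 were above those of SE21s in 67 of the 91 genes, and in 56.9% of all genes averaging 5 FPKM or more. The median ratio of the LY2186 mean to SE21s was 1.44 and to MH86 1.32. In 9 called genes the parents differed by 2-fold or more. LOC_Os04g03796 and LOC_Os01g12760 were by far the largest, with SE21s minus MH86 log2 differences of 5.29 ± 0.26 (SE, adjusted p = 1.4e-19) and 3.39 ± 0.22 (adjusted p = 7.4e-16), each with SE21s higher at 17 of 17 times.

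LOC_Os01g12760 was listed at 0 in 6 MH86 libraries and reached at most 0.421 FPKM there. It ran from 1.23 to 20.8 FPKM in SE21s (median 5.30) and from 2.32 to 21.7 FPKM in LY2186 (median 11.3). The hybrid was thus above MH86 in every library and overlapped with SE21s, with a mean of 1.56 times SE21s. LOC_Os11g01310 was also higher in SE21s than in MH86 (log2 difference 1.41 ± 0.22 SE, adjusted p = 1.3e-06, higher at 16 of 17 times).

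The smallest adjusted p in the other direction belonged to LOC_Os01g12770, the next gene in the table after LOC_Os01g12760. It was lower in SE21s by a log2 difference of -0.88 ± 0.12 (SE, adjusted p = 3.5e-08, higher in SE21s at 1 time only). Its level ran from 27.8 to 104 FPKM in LY2186 (median 56.8), from 11.8 to 48.8 in SE21s (median 21.4) and from 14.8 to 83.4 in MH86 (median 37.6). These neighbours were thus both above the higher parent in LY2186, but the higher parent was SE21s for one and MH86 for the other.

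LOC_Os04g59150 and LOC_Os12g34850 were lower in SE21s as well, by log2 differences of -1.25 ± 0.20 (adjusted p = 1.4e-06) and -0.27 ± 0.04 (adjusted p = 1.3e-06). SE21s was higher at 0 and 1 of 17 times. The call for LOC_Os12g34850 was lost without the time block.

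**Figure D5:**
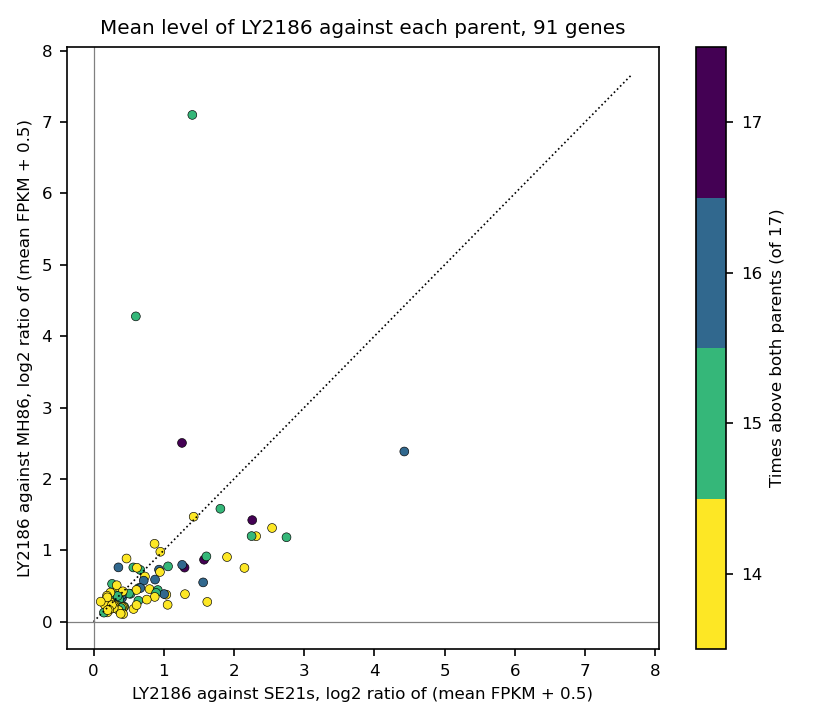
Log2 ratio of mean levels (mean FPKM + 0.5 over 17 times) of LY2186 against SE21s (x axis) and against MH86 (y axis) for 91 genes, coloured by the number of times above both parents; the dotted line marks equal ratios. Most points lie near the origin with both ratios above 0, while LOC_Os04g03796 and LOC_Os01g12760 lie far up because MH86 is near 0, and LOC_Os10g26940 lies far to the right.

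The field was sampled over 2 days, and the second was compared with the first at the same 8 hours within each line. Of the 91 genes 1 was called in these comparisons, in LY2186. In SE21s limma called 0 of the 91 higher and 0 lower, with 0.0% and 0.0% of all genes tested called. An unadjusted p under 0.05 was found there for 20 of the 91 genes and for 1784 of all 16842 genes tested. In MH86 it likewise called 0 higher and 0 lower, with 0.0% and 0.0% called over all genes, and 34 had an unadjusted p under 0.05 (5317 of all genes).

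In LY2186 1 gene was higher on the second day (0.748% of all genes tested were) and 0 were lower (0.528% of all were), while 28 had an unadjusted p under 0.05 (4745 of all genes). The gene was LOC_Os04g53540, which averaged 19.5 FPKM on the first day and 28.4 FPKM on the second in LY2186. Its log2 difference was 0.54 ± 0.09 (SE, limma adjusted p = 0.0491, higher at 8 of 8 hours), and the call was lost without the filter on low genes. In SE21s and MH86 its log2 differences were 0.40 and 0.49, with adjusted p of 0.465 and 0.0789. The median log2 change of the 91 genes in LY2186 was -0.10, against 0.03 for all genes tested.

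To see how far an excess on 1 day recurred on the other, genes were also chosen on the 8 times of a single day and described on the 8 times that had not chosen them. On the first day 245 genes averaging 5 FPKM or more stood above both parents at 7 or more times, and 37 of them (15.1%) did so on the second day, where 1.001% of all such genes did. Of the 245, 179 had a positive mean difference to the higher parent on the second day, against 12.02% of all genes. Their median log2 difference was 0.26 on the day that chose them and 0.07 on the other.

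In the reverse order 121 genes were chosen on the second day, and 37 of them (30.6%) met the same rule on the first day, where 2.03% of all genes did. Of the 121, 104 had a positive mean difference on the first day, against 16.1% of all genes. Their median log2 difference was 0.18 on the day that chose them and 0.11 on the first day. The excess thus recurred in sign for most of the chosen genes and was smaller outside the day that chose them. The shares of all genes include genes whose parents lie far apart, which clear both less readily. They are therefore no matched baseline for the chosen genes. In the set chosen on the first day, 137 of 199 genes rhythmic in LY2186 had a fitted peak from 18 to 24 h (68.8%). In the set chosen on the second day 77 of 102 did (75.5%), against 33.3% of all rhythmic genes averaging 5 FPKM or more. These peaks came from the fit to all LY2186 libraries, including those of the day that chose the genes. The sets also held 70 and 58 of the 91 genes. These shares are therefore no separate check of the late peak.

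By the chromosome in the locus identifiers, 90 of the 91 genes were placed, and all 12 chromosomes held some. Chromosome 3 held the most, 16, and chromosome 9 the fewest, 2. As a share of the genes averaging 5 FPKM or more this was 0.308% on chromosome 9 and at most 1.29%, on chromosome 11 with 7 genes.

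Genes within 50 of each other in locus number formed 4 pairs with 8 members. Besides LOC_Os01g12760 and LOC_Os01g12770 these were LOC_Os02g53700 with LOC_Os02g53750, LOC_Os03g31310 with LOC_Os03g31320, and LOC_Os04g49160 with LOC_Os04g49194. LOC_Os03g31310 averaged 43.7 ± 26.5 FPKM in LY2186, 26.4 ± 12.98 in SE21s and 29.2 ± 17.7 in MH86 (SD, n = 17 times). Its neighbour LOC_Os03g31320 averaged 22.2 ± 10.8 FPKM in LY2186, 17.6 ± 8.93 in SE21s and 16.4 ± 8.06 in MH86. The fitted peaks of this pair lay between 20.0 and 21.2 h in the 3 lines.

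The pair on chromosome 4 was less alike in timing. LOC_Os04g49160 had fitted peaks at 22.5, 21.5 and 22.8 h in SE21s, LY2186 and MH86, while LOC_Os04g49194 was rhythmic in SE21s (21.7 h) and MH86 (23.8 h) but missed the threshold in LY2186 (adjusted p = 0.460). Its mean level in LY2186, 35.0 FPKM, was 2.34 times that in MH86, and that of LOC_Os04g49160, 10.9 FPKM, was 1.80 times that in MH86.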

How the data were processed

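Per the labels, flag leaf RNA was made into strand-specific libraries with a TruSeq stranded kit. The authors deposited 1 table of FPKM values. The submitters' processing notes name TopHat2 and Cuffdiff. Versions, genome build and annotation release are missing from these sources, so no coordinates or sequences are printed. Lines and times come from the labels, and every column matched 1 sample. The genes, gene lists (symbols from general knowledge) and tests were chosen with earlier results of these data known.

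Differences to the higher parent were taken per time on log2(FPKM + 0.5). The 16842 genes averaging 1 FPKM or more entered limma 3.58.1 (R 4.3.3, trended and robust prior, two-sided tests), with p-values adjusted by Benjamini-Hochberg over all of them, at 0.05. Rhythm was fitted per line (17 libraries) with 24 h cosine and sine terms, the parents over 51 libraries with time as a block, which the labels share between lines, and days per line over 16 libraries with hour as a block. Steps were tested on simulated data. Genes were named by largest excess, level, list membership, peak window and smallest adjusted p. A 0 was called doubtful where at least 2 neighbours in its line reached 10 FPKM. Neighbours were the previous time, the next time and the same hour of another day. There were 446 doubtful values in the table and 0 in the 91 genes. Alternatives covered pseudocount, filters, scaling, blocks and left-out times.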

Additional observations from a re-analysis of the deposited data

How the results depend on the processing

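The number of genes above both parents followed the rule: 182 at 13 of 17 times, 39 at 15, 4 at 17, and 12 when an excess of at least 1.2-fold was asked for. When each time was left out in turn it lay between 39 and 138, the low end with 14 and the high end with 13 of the other 16 times required (the latter chosen after seeing the data). The filter on mean level gave 129 genes at 1 FPKM and 68 at 10. Median-ratio and quantile scaling between libraries gave 79 and 70 genes, of which 61 each were among the 91. Counts of rhythmic genes stayed between 71 and 83, those with a peak from 18 to 24 h between 50 and 56, under every alternative of the rhythm test, and among genes chosen under either scaling 64.4% to 72.5% of the rhythmic ones had such a peak. Genes chosen by an excess of at least 1.2-fold had it in 2 of 6, 3 of 9 and 2 of 8 rhythmic cases in SE21s, LY2186 and MH86.

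Without the replicate block, 3 of the 91 genes were higher and 14 lower in SE21s than in MH86, against 11 and 35 with libraries paired by time. For the second day in LY2186, no filter on low genes gave 0 higher, and a filter at 5 FPKM gave 2 lower. The difference between parents in LOC_Os05g48800, not called (0.04), was -0.17 under quantile scaling. The causes of these changes were not tested. Over the genes named, 1373 alternative values kept direction and call, 26 lost a call, 4 gained one and 1 reversed. With 1 library per line and time and unknown depth, small excesses in single libraries cannot be separated from library error.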
